A study of Mus musculus with 9 samples.

Results

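The genes of the zona pellucida and of sperm-egg recognition were examined in growing mouse oocytes with the sex chromosome complements XX, XO, and XY. The rule named 8 genes, Zp1, Zp2, Zp3, Astl, Izumo1r, Cd9, Cd81, and Oosp1, and all 8 were found among the 28052 genes of the count matrix. RNA was sequenced from 9 samples, 3 per genotype, and each sample pooled 30 oocytes, of which 10 measured 50–55 μm and 20 measured 55–60 μm across, all labelled C57BL/6 and 18 days postpartum. XX females were littermates of the XY females and came from B6.YTIR males and B6 females, so that the Y chromosome of the XY oocytes was YTIR. XO females came from another cross, of Paf carrier males with B6 females, and the Paf stock had been moved from C3H/HeSnJ to B6 by backcrossing. A difference between XO and the other genotypes therefore cannot be told apart from a difference between these crosses. The number of donor females per pool was not given in the sources used here. The pools are called XX1 to XX3, XO1 to XO3, and XY1 to XY3.

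The growing oocyte secretes the zona pellucida, an extracellular coat of glycoproteins that sperm bind and that later helps to keep additional sperm out. In the mouse, the coat is built from ZP1, ZP2, and ZP3, of which ZP2 and ZP3 form the filaments and ZP1 links them. ASTL, also called ovastacin, is a protease of the cortical granules that cleaves ZP2 after fertilization. On the egg membrane, IZUMO1R, also called JUNO, is the receptor of IZUMO1 on sperm, whereas the tetraspanins CD9 and CD81 act in the fusion of sperm and egg. OOSP1 is a protein that the oocyte secretes and belongs to a small family with OOSP2 and OOSP3.

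Libraries of the Smart-seq3 kind tag the 5′ end of each cDNA with a unique molecular identifier (UMI). The pools held between 2130145 and 3157338 UMIs on genes. Levels are given as normalized CPM, the UMI count divided by the gene total of the pool and by a factor from ERCC spike-ins, synthetic RNAs added with the lysis buffer, on the usual CPM scale. A single UMI was worth between 0.302 and 0.565 normalized CPM. In a pool, fewer transcripts per oocyte and fewer oocytes with a transcript cannot be told apart. All 10 markers of oocytes passed the filter on low counts, whereas Inha and Gatm, markers of granulosa cells, had at most 1 UMI in any pool. Of 11 granulosa cell markers, 8 were in the matrix, their summed level was 48.3–67.0 normalized CPM for XX, 55.8–67.2 for XO, and 56.6–92.4 for XY pools, and most of it came from Cyp19a1, Kitl, and Nr5a2. Of 3 tested, Kitl was called, at an unadjusted p below 0.05, higher in XX than XO oocytes, beside 1.4% of all tested genes. Its log2 fold change was 1.09 ± 0.32 (SE, edgeR adjusted p = 0.203). Of 2 theca cell markers tested, Hsd3b1 was called lower in XX (-1.32 ± 0.48) and in XY than XO oocytes (-1.44 ± 0.49), beside 16.7% and 8.24%. Of 7 genes that act on the sperm, 5 were in the matrix. Izumo1 and Spaca6 did not exceed 1 UMI and Zpbp 4 UMIs in any pool, whereas Spam1 had 16 to 155 and Zp3r 3 to 28 UMIs, and both were tested and not called in any comparison.

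Of the 8 genes, 7 passed the filter and were tested, and Cd81 did not. Zp1 and Astl were lower in XX and in XY than in XO oocytes at an unadjusted p below 0.05, the threshold of the study. The study applied it in limma with surrogate variables for batch effects as covariates, which the fit used here did not have. It reported many autosomal genes as lower in XO than in XX and XY oocytes. No tested member was called between XX and XY oocytes, and none was called higher in XX or XY than XO oocytes. Among all 10993 genes tested, 16.7% were lower and 1.4% higher in XX than XO oocytes, together 18.1%, while 8.24% were lower and 1.69% higher in XY than XO oocytes, together 9.93%. Between XX and XY oocytes, 4.39% were lower and 1.41% higher in XX, together 5.8%. With so few members tested, counts of 2 of 7 set against these shares show nothing particular to the members. After Benjamini-Hochberg adjustment in edgeR, 0% of all genes remained for XX against XO, 0.0819% for XX against XY, and 0.0364% for XY against XO, and no member was among them. The pools of XX and XO did not overlap for 16.4% of all tested genes, those of XX and XY for 15.8%, and those of XY and XO for 10.2%, whereas the pools of each tested member overlapped in all comparisons. Of 10 oocyte markers, 3 (Gdf9, Nobox, and Ooep) were called lower in XX than XO, beside 16.7%. In XY, 4 (these and Bmp15) were lower than in XO, beside 8.24%. Bmp15 was also called higher in XX than XY oocytes, beside 1.41%. Gdf9 had 339, 869, and 2432 normalized CPM in XO1 to XO3 (-2.11 ± 0.62 for XX against XO, edgeR adjusted p = 0.203). The study found no difference of Gdf9 between genotypes at this size, in its RNA-seq or by qRT-PCR.

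**Figure D1:**
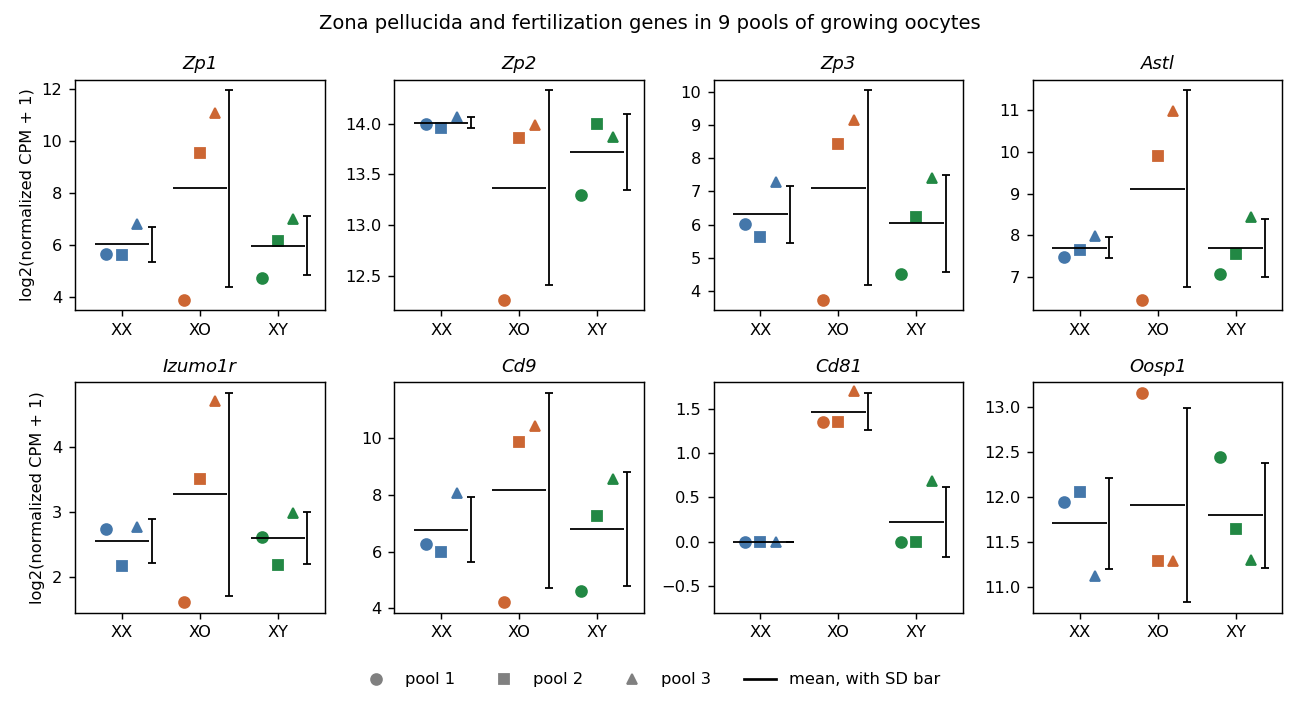
Levels of the 8 genes, as log2(normalized CPM + 1), in 3 pools each of XX, XO, and XY oocytes, with an axis of its own for each gene. Points are pools, the horizontal line is the mean of the log2 values, and the bar beside it is 1 SD. XO1 is the lowest of the 9 pools for Zp1, Zp2, Zp3, Astl, Izumo1r, and Cd9 and the highest for Oosp1.

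The zona genes differed widely in level. Zp2 (ENSMUSG00000030911.7, chr7:120126772-120145291, minus strand, GRCm38) was among the most abundant transcripts, with 16343, 15914, and 17150 normalized CPM in XX1 to XX3, 4919, 14837, and 16248 in XO1 to XO3, and 10049, 16341, and 14911 in XY1 to XY3. All pools but XO1 and XY1 thus lay close together, and Zp2 ranked between 1 and 3 among all genes in 7 of the 9 pools, 10 in XY1, and 40 in XO1. Its share of all gene UMIs was 2.14% in XX3 (95% Wilson interval 2.12–2.16%) and 0.412% in XO1 (0.404–0.420%), intervals that cover counting error only. The means were 16469 ± 628 (SD, n = 3) for XX, 12001 ± 6174 for XO, and 13767 ± 3298 for XY oocytes. The log2 fold change was 0.46 ± 0.57 (SE) for XX against XO (edgeR adjusted p = 0.672), 0.26 ± 0.57 for XX against XY (adjusted p = 1), and 0.20 ± 0.57 for XY against XO (adjusted p = 0.903). Zp2 was therefore not called in any comparison of this fit, with the spike-in factors and no covariate.

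Zp3 (ENSMUSG00000004948.12, chr5:135980099-135988624, plus strand), the partner of Zp2 in the filament, was far less abundant in these 5′ counts, with 64.5, 49.0, and 155 normalized CPM in XX1 to XX3, 12.4, 341, and 570 in XO1 to XO3, and 21.8, 73.6, and 169 in XY1 to XY3. The XO pools lay on both sides of all XX and XY pools. The log2 fold change was -1.78 ± 1.10 for XX against XO (edgeR adjusted p = 0.386), 0.02 ± 1.07 for XX against XY (adjusted p = 1), and -1.80 ± 1.10 for XY against XO (adjusted p = 0.57). The spread among the 3 XO pools, 45.9-fold from the lowest to the highest, exceeded the difference between the genotype means.

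Zp1 (ENSMUSG00000024734.8, chr19:10914287-10920632, minus strand), the cross-linker of the coat, had 49.2, 48.0, and 112 normalized CPM in XX1 to XX3, 26.0, 70.6, and 129 in XY1 to XY3, and 14.0, 759, and 2166 in XO1 to XO3. XO2 and XO3 exceeded every XX and XY pool, whereas XO1, with 27 UMIs, was below all of them. With a mean of 69.8 ± 36.9 (SD, n = 3) for XX, 980 ± 1093 for XO, and 75.1 ± 51.4 for XY oocytes, the log2 fold change was -3.81 ± 1.31 (SE) for XX against XO (edgeR adjusted p = 0.214) and -3.70 ± 1.30 for XY against XO (adjusted p = 0.485). It was -0.11 ± 1.17 for XX against XY (adjusted p = 1), and the 95% interval of that difference, -2.41 to 2.20, covers a large change in either direction. The call against XO oocytes rested on XO3, without which the log2 fold change was -2.47 for XX and -2.36 for XY and neither passed the threshold. It was lost as well, at values close to those with all pools, without XX1 (-3.61) or XX2 (-3.60) in the comparison with XX and without XY1 (-3.30) or XY2 (-3.66) in that with XY oocytes.

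Astl (ENSMUSG00000050468.12, chr2:127338639-127357651, plus strand), the cortical granule protease, followed the order of Zp1 across the XO pools at a smaller range. It had 177, 199, and 253 normalized CPM in XX1 to XX3, 86.5, 960, and 2031 in XO1 to XO3, and 134, 187, and 345 in XY1 to XY3. Again XO1 was the lowest of the 9 pools and XO2 and XO3 were the highest. Astl was lower in XX than XO oocytes by a log2 fold change of -2.29 ± 0.87 (edgeR adjusted p = 0.233) and lower in XY than XO oocytes by -2.21 ± 0.86 (adjusted p = 0.485), while XX against XY gave -0.08 ± 0.83 (adjusted p = 1). The call was lost without XO3, where the values were -1.32 for XX and -1.24 for XY, without any 1 of the XX pools for XX (-2.18, -2.25, and -2.45), and without XY1 (-1.95) or XY2 (-2.10) for XY oocytes.

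The receptor of sperm IZUMO1 was detected at a low level. Izumo1r (ENSMUSG00000031933.17, chr9:14885814-14903949, minus strand) had 16, 10, and 19 UMIs in XX1 to XX3, 4, 20, and 44 in XO1 to XO3, and 11, 11, and 23 in XY1 to XY3. The range over the XO pools was thus from 4 to 44 UMIs, and the counts of the XX and XY pools fell within it. The mean level was 4.996 ± 1.30 (SD, n = 3) normalized CPM for XX, 12.4 ± 11.5 for XO, and 5.21 ± 1.68 for XY oocytes. The log2 fold change was -1.29 ± 0.70 for XX against XO (edgeR adjusted p = 0.333) and -1.23 ± 0.70 for XY against XO (adjusted p = 0.543).

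Cd9 (ENSMUSG00000030342.8, chr6:125460266-125494791, minus strand), the tetraspanin needed on the egg for fusion, had 75.5, 62.7, and 270 normalized CPM in XX1 to XX3, 17.6, 919, and 1377 in XO1 to XO3, and 23.7, 151, and 378 in XY1 to XY3. The pool with the number 3 was the highest of its genotype in all 3 genotypes, and the pools with the number 1 in XO and XY were the lowest of all. The log2 fold change was -2.50 ± 1.32 for XX against XO (edgeR adjusted p = 0.326), -2.06 ± 1.30 for XY against XO (adjusted p = 0.577), and -0.44 ± 1.25 for XX against XY (adjusted p = 1). The genes Gm28809 and Gm26728 overlap Cd9 on the opposite strand, and the alignment was stranded.

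Cd81 (ENSMUSG00000037706.17, chr7:143052739-143067934, plus strand), the second tetraspanin, was at the limit of detection. It had 0 UMIs in XX1 to XX3, 3, 3, and 4 in XO1 to XO3, and 0, 0, and 2 in XY1 to XY3. Its XO pools did not overlap with those of XX or XY, and unlike the other members XO1 did not stand apart from XO2. Over the 3 XX pools, 0 of 7574543 UMIs allow up to 3, and against this limit the pooled XO level, taken as measured, was at least 5.29-fold higher. The 10 UMIs of XO had an exact Poisson interval of 4.8 to 18.4, and the 2 UMIs of XY one of 0.242 to 7.22, so that the bound leaves out the counting error of XO oocytes. Neither covers the spread between pools, and Cd81 was below the filter of the test.

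Oosp1 (ENSMUSG00000041857.10, chr19:11667460-11691150, minus strand) was lower in pool 3 than in pool 1 of each genotype. All other tested members were higher there, Zp2 and Izumo1r only slightly in XX. It had 3938, 4242, and 2225 normalized CPM in XX1 to XX3, 9137, 2494, and 2495 in XO1 to XO3, and 5572, 3195, and 2527 in XY1 to XY3. XO1 was the highest of the 9 pools, and XO2 and XO3 lay close together, below all XY pools and above XX3 alone. No comparison was called, with log2 fold changes of -0.44 ± 0.62 for XX against XO (edgeR adjusted p = 0.709), -0.12 ± 0.62 for XX against XY (adjusted p = 1), and -0.32 ± 0.62 for XY against XO (adjusted p = 0.849). The neighbouring family members Oosp2 and Oosp3, named here after their values were seen, were also highest in XO1, at 2650 and 5825 normalized CPM, against 637 and 1377 in XO2 and 716 and 1529 in XO3.

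The median log2 fold change of all tested genes was -0.457 for XX against XO, -0.191 for XX against XY, and -0.300 for XY against XO oocytes. Relative to it, Zp1 was still lower by -3.35 in XX and by -3.40 in XY than XO oocytes, and Astl by -1.83 and -1.91. With TMM factors computed on genes, which put that median at -0.0326, -0.0351, and -0.0231, Zp1 still passed the unadjusted threshold, at -3.20 for XX against XO and -3.27 for XY against XO, whereas Astl, at -1.71 and -1.81, did not. With these factors 649 of all tested genes were higher and 662 lower in XX against XO, where the spike-in factors gave 154 and 1832. The corresponding counts were 284 and 304 for XX against XY, in place of 155 and 483, and 593 and 404 for XY against XO, in place of 186 and 906.

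**Figure D2:**
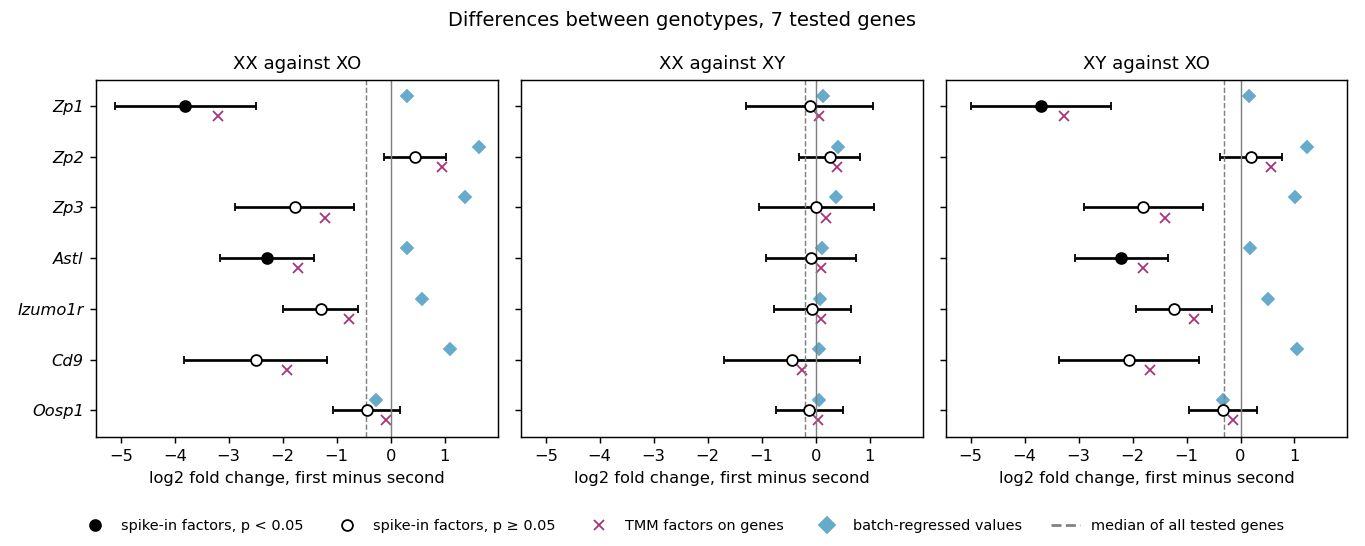
Log2 fold changes of the 7 tested genes in the 3 comparisons, first genotype minus second. Circles are edgeR estimates with the spike-in factors and their SE, filled where the unadjusted p was below 0.05 (Zp1 and Astl against XO), crosses are estimates with TMM factors on genes, diamonds are differences of the batch-regressed values, and the dashed line is the median of all tested genes with the spike-in factors.

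The direction of most members against XO oocytes depended on the matrix. In the batch-regressed values, log2 values from which the authors removed components estimated from the same samples, Zp3 averaged 7.06 ± 0.21 (SD, n = 3) for XX, 5.68 ± 0.34 for XO, and 6.69 ± 0.43 for XY oocytes. Zp2 averaged 14.39 ± 0.08, 12.74 ± 0.23, and 13.97 ± 0.35 there, and Cd9 7.63 ± 0.35, 6.53 ± 0.56, and 7.57 ± 0.80. With limma on these values, 4 of 7 members, Zp2, Zp3, Izumo1r, and Cd9, were called higher in XX than XO oocytes, against 36.1% of all tested genes, and 3 of 7, Zp2, Zp3, and Cd9, higher in XY than XO oocytes, against 37.5%. Oosp1 was called lower in XY than XO oocytes there, at -0.33. Zp1, at 0.30 and 0.16, and Astl, at 0.30 and 0.17, were not called in either comparison and had the opposite sign to that with the spike-in factors. These p-values do not count the removed components, and this comparison was added after the data were seen. The cause of the reversal was not tested.

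Without XO1, 5 of 7 members, Zp1, Zp3, Astl, Izumo1r, and Cd9, were lower in XX than XO oocytes, against 34.2% of all genes tested then, and the same 5 were lower in XY than XO oocytes, against 27.6%. Without XO3, none was lower in either comparison, against 7.95% and 2.35% of all genes tested. The counts of members thus depended on which XO pool was present.

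The ratio of zona transcripts within a pool does not depend on the scaling between pools. The UMI ratio of Zp1 to Zp3 was 0.762, 0.979, and 0.726 in XX1 to XX3, 1.13, 2.23, and 3.799 in XO1 to XO3, and 1.19, 0.960, and 0.759 in XY1 to XY3. It was higher in every XO pool than in every XX pool, with geometric means of 2.12 and 0.815, and the exact two-sided permutation test gave p = 0.1, the smallest that 3 pools against 3 allow (adjusted p = 0.6 over 9 tests). For XY against XO the pools overlapped (exact permutation p = 0.2, adjusted p = 0.6), as they did for XX against XY (exact permutation p = 0.5, adjusted p = 0.643). In the batch-regressed values the log2 difference of this ratio was -1.08 for XX against XO, compared with -1.38 in the counts.

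The ratio of Zp2 to Zp3 was 253, 325, and 111 in XX1 to XX3, 396, 43.5, and 28.5 in XO1 to XO3, and 460, 222, and 88.0 in XY1 to XY3. Pool 3 had the lowest ratio in each genotype, and the XO pools spanned the XX pools on both sides. The exact permutation test gave p = 0.4 for XX against XO, 1.0 for XX against XY, and 0.3 for XY against XO. The ratio of Zp1 to Zp2 likewise ranged from 0.00284 in XO1 to 0.133 in XO3, against 0.00301 to 0.00656 in XX and 0.00259 to 0.00862 in XY pools. Its exact permutation p was 0.4 for XX against XO, 0.7 for XX against XY, and 0.3 for XY against XO.

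Spike-ins had the same proportions in the mix given to each pool, but a ratio among them also rose from pool 1 to pool 3 in each genotype. The UMI ratio of ERCC-00002 to ERCC-00074 was 0.0277, 0.0265, and 0.196 in XX1 to XX3, 0.00921, 0.654, and 0.990 in XO1 to XO3, and 0.0109, 0.0649, and 0.234 in XY1 to XY3. XO1 was thus the lowest and XO3 the highest of the 9 pools, as for Zp1, Zp3, Astl, Izumo1r, and Cd9. Of 10 spike-ins with at least 50 UMIs in every pool, ERCC-00002 made up 0.533% of the spike-in UMIs in XO1 and 25.5% in XO3. ERCC-00130 made up 1.33% and 20.3%, and ERCC-00074 57.9% and 25.7%. From the lowest to the highest pool, the share varied 47.7-fold for ERCC-00002 and 15.3-fold for ERCC-00130. The share of all others varied far less, from 1.68-fold (ERCC-00136) to 2.28-fold (ERCC-00004). All of these others but ERCC-00145 had their lowest share in XO3. With the log2 ratio of ERCC-00002 to ERCC-00074 as a covariate (an alternative added later, with the data known), the log2 fold change of Zp1 was -0.97 for XX against XO and -1.16 for XY against XO, that of Astl -0.59 and -0.67, and those of Zp3 (0.42 and 0.0649) and Cd9 (0.16 and 0.16) changed sign. Zp1 stayed below the unadjusted threshold in both comparisons and Astl did not. In the same fit Zp2 was called higher, by 1.01 in XX (edgeR adjusted p = 0.00189) and by 0.70 in XY than XO oocytes (adjusted p = 0.0289), and Oosp1 was called lower, by -0.71 (adjusted p = 0.00318) and -0.60 (adjusted p = 0.0177). Beside these counts of 1 higher and 2 lower, with Zp1 among the latter, 6.59% of all tested genes were called higher and 28.5% lower for XX against XO and 7.88% and 18.7% for XY against XO. The part of the spike-in shift in the differences of the members was not tested beyond this fit.

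**Figure D3:**
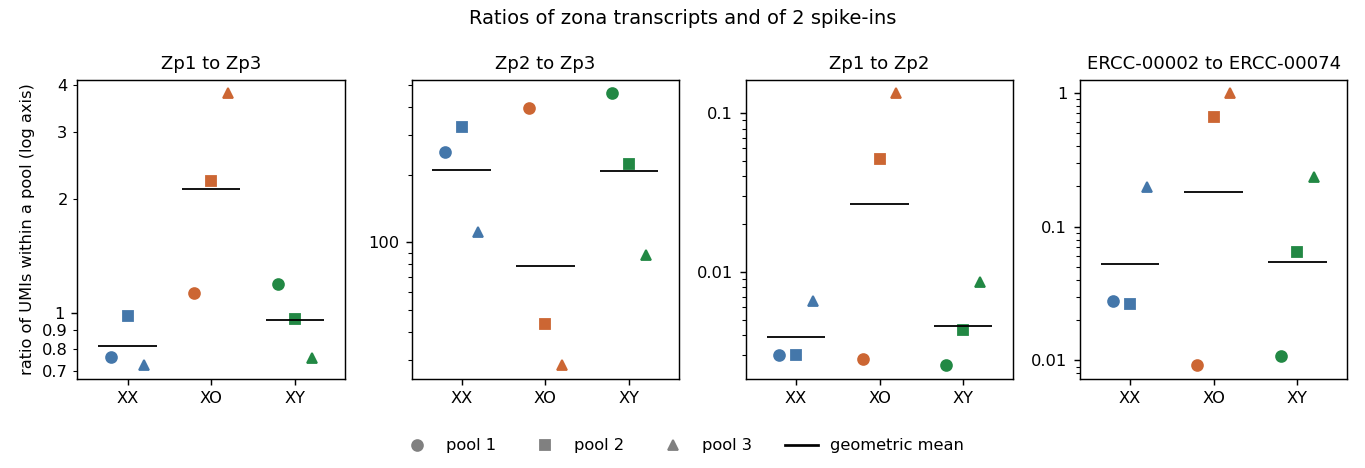
Ratios of UMIs within each pool, on log axes, for Zp1 to Zp3, Zp2 to Zp3, Zp1 to Zp2, and the spike-ins ERCC-00002 to ERCC-00074. Points are the 3 pools of each genotype and lines the geometric means. Zp1 to Zp2 and the spike-in ratio are both far lower in XO1 (0.00284 and 0.00921) than in XO3 (0.133 and 0.990).

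The spread within a genotype was compared with all tested genes. The part of the variance of log2(normalized CPM + 1) that lay within genotypes was 77.2% for Zp1, 77.7% for Zp2, 92.7% for Zp3, 75.4% for Astl, 84.8% for Izumo1r, 90.1% for Cd9, and 98.3% for Oosp1, against a median of 75.3% for all tested genes. XO1 was the lowest pool for 6 of 7 tested members and for 26.7% of all tested genes. XO3 was the highest pool for 5 of 7 tested members and for 39.8% of all tested genes.

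Pool 3 exceeded pool 1 in each genotype for all tested members but Oosp1, and the difference was the largest in XO oocytes. For Zp2 it was 0.07 on the log2 scale for XX, 1.72 for XO, and 0.57 for XY oocytes. Izumo1r gave 0.02, 3.07, and 0.38. For Zp1 it was 1.18 on the log2 scale for XX, 7.18 for XO, and 2.26 for XY oocytes. For Cd9 it was 1.83 on the log2 scale for XX, 6.21 for XO, and 3.94 for XY oocytes, at percentiles 99.6, 99.7, and 99.8 of all tested genes. For Zp3 it was 1.25, 5.41, and 2.90, and for Oosp1 -0.82, -1.87, and -1.14, at percentiles 9.2, 3.11, and 4.98. Cd9 thus had the highest difference of the tested members in XX and XY and Zp1 in XO oocytes, and Oosp1 had the lowest in each.

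This difference between pools moved with the GC content of the transcripts. All tested genes were put into 5 bins of like size by the GC content of the longest coding transcript in Gencode vM21, and the median difference of XO3 from XO1 was -0.691 in the lowest bin, up to 42.7% GC, and 1.43 in the highest, from 52.2% GC. The corresponding medians were -0.321 and 0.0311 in XX, and -0.431 and 0.62 in XY oocytes. Zp1 (55.1% GC), Zp3 (56.1%), Astl (53.3%), and Izumo1r (56.7%) belonged to the highest bin, and Oosp1 (42.0%) to the lowest. Zp1, Zp3, and Astl lay above the median of their bin in all 3 genotypes, and Izumo1r in XO alone. Cd9, with 45.9% GC, lay far above genes of similar GC content, and Zp2 had 47.1%. The part of GC content in the differences between genotypes was not tested.

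**Figure D4:**
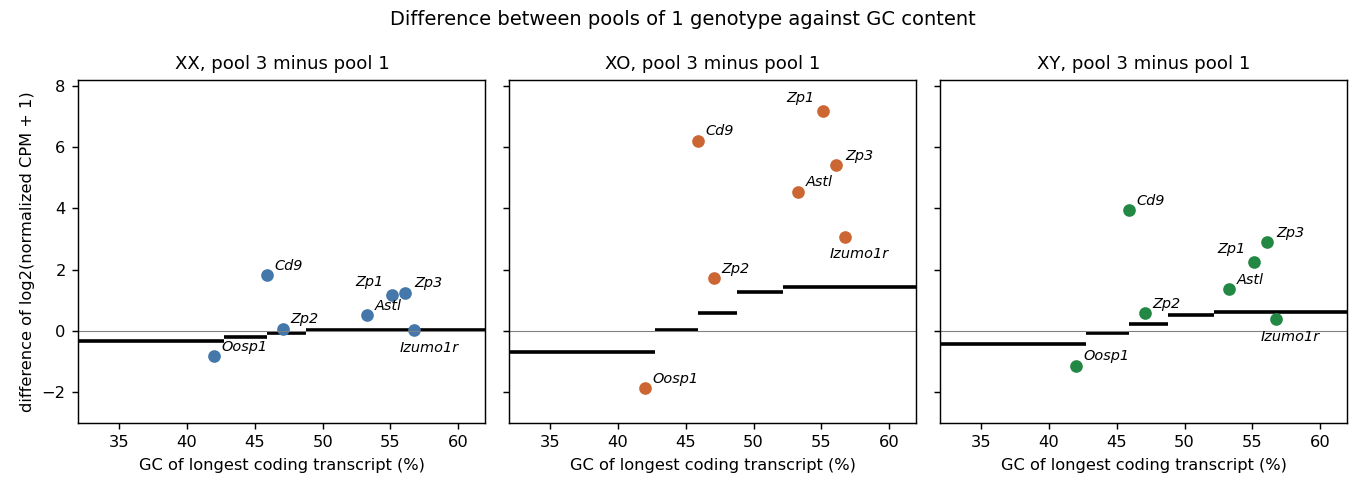
Difference of log2(normalized CPM + 1) between pool 3 and pool 1 of each genotype against the GC content of the longest coding transcript, in percent. Points are the 7 tested members and black lines the medians of 5 bins of all tested genes by GC content, drawn from 32 to 62%; Zp1 (7.18) and Cd9 (6.21) are the highest points in XO, and Oosp1 (-1.87) is the lowest.

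Levels of the 8 genes were set against each other per kb of the longest coding transcript, although a 5′ UMI marks a molecule regardless of its length. In XX oocytes the order of mean normalized CPM per kb was Zp2 (7375 ± 281, SD, n = 3), Oosp1 (3568 ± 1119), Cd9 (111 ± 94.7), Astl (88.3 ± 16.5), Zp3 (67.6 ± 43.2), Zp1 (35.6 ± 18.8), Izumo1r (3.87 ± 1.00), and Cd81 at 0. The pools of Cd9 and Astl, of Astl and Zp3, and of Zp3 and Zp1 overlapped, while the other neighbours in this order did not. XY oocytes gave the same order, and there the pools of Zp2 (6165 ± 1477) and Oosp1 (3873 ± 1647) overlapped as well. In XO oocytes Cd9 (628 ± 563), Zp1 (499 ± 557), Astl (432 ± 410), and Zp3 (233 ± 212) followed Zp2 and Oosp1, and neighbours among these 4 overlapped. The order among these genes depended on the division by length, since in normalized CPM, not divided, the mean of Astl was above that of Cd9 for XX (210 and 136), XY (222 and 184), and XO (1026 and 771), and above that of Zp1 for XO (1026 and 980).

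The sequences before the start sites of Zp3, Astl, Cd9, and Oosp1 are shown as background. Zona genes are known to be activated in the oocyte by FIGLA, a basic helix-loop-helix factor that binds an E-box, CANNTG, together with a partner. The sequences are those of RefSeq on GRCm38.p6, 5′ to 3′ on the strand of the gene, each cut where the gene of Gencode begins, with every CANNTG in capitals. Of the 8 genes, Zp1 and Zp2 were not matched in the promoter table. The stretches are chr5:135979855-135980098 (plus) for Zp3, chr2:127338389-127338638 (plus) for Astl, chr6:125494792-125495010 (minus) for Cd9, and chr19:11691151-11691301 (minus) for Oosp1.
Zp3: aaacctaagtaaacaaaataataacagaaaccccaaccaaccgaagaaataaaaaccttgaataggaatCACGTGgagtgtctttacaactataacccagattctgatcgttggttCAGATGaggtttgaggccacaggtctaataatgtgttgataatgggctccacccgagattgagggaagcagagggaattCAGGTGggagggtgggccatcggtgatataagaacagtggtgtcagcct
Astl: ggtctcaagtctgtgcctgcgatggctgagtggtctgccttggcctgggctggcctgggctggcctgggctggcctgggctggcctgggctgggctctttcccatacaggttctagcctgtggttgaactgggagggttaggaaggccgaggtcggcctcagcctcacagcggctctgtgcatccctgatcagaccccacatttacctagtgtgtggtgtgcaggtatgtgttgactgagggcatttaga
Cd9: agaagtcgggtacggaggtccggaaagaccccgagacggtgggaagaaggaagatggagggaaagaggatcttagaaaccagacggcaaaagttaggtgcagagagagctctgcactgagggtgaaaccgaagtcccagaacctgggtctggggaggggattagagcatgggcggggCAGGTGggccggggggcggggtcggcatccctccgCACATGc
Oosp1: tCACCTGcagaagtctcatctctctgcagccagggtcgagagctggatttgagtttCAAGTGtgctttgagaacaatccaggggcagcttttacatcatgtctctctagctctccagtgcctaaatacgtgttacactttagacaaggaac
In the 250 bases before the RefSeq start, CANNTG, which reads alike on both strands, occurred 3 times for Zp3, 0 times for Astl, 3 times for Cd9, and 5 times for Oosp1, 1 time each for Izumo1r and Cd81, and in 66.2% of all 32851 promoters. Those of Zp3 began 181, 134, and 55 bases before the start. The printed stretches, cut where the gene begins, hold 2 of those of Cd9 and 2 of those of Oosp1. Astl had 2 listed starts, of which 1 is shown. CACGTG, 1 form of it, occurred for Zp3 and in 6.02% of all promoters, and CACCTG or its complement for Zp3, Izumo1r, Cd9, and Oosp1 and in 17.2%. TATAAA, searched on both strands, was in none of the 6 promoters and in 12.4% of all. Zp3 and Cd9, higher in pool 3, and Oosp1, lower there, thus all held the motif, and Astl did not hold it in this window. A ratio of spike-ins shifted between these pools as well. Whether the motif has a part in the difference between pools was not tested.

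Genes whose levels ran most like each member were sought among 7264 tested genes that averaged 10 normalized CPM or more, by the root mean square difference of centred log2(normalized CPM + 1) over the 9 pools. Zp1 was most like Tcl1 (0.139), which had 19.2 normalized CPM in XO1 and 2005 in XO3, and Cpsf4l (0.239). Zp3 was most like Rnf26 (0.141) and Usp2 (0.149), Cd9 like Tmem50a (0.0909) and Bscl2 (0.142), and Astl like Prim2 (0.208) and Rcl1 (0.218), all lowest in XO1 and highest in XO3. Oosp1 was most like Gm813 (0.0679) and Dleu2 (0.0729), both highest in XO1. Zp2 was most like Gm15489 (0.113) and Usp46os1 (0.131), Izumo1r like Stradb (0.203) and Gm26827 (0.206), and Cd81 like Eif2s2 (0.192) and Lurap1l (0.2). Among the members, Zp3 and Cd9 were the nearest pair (0.459) and Zp1 and Oosp1 the farthest (2.67).

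Other genes of the pathway were examined as lists. Of 18 genes for the egg membrane and sperm binding, 12 were tested, of which 1 was called higher and 2 lower in XX than XO oocytes, beside 1.4% and 16.7% of all tested genes, with a median log2 fold change of -0.319 against -0.457 for all tested genes. Itgb1, the integrin β1 chain, was the one that was higher, with 46.7, 43.1, and 45.4 normalized CPM in XX1 to XX3 and 25.9, 29.5, and 29.9 in XO1 to XO3 (log2 fold change 0.66 ± 0.23, edgeR adjusted p = 0.214). Its pools did not overlap, and it was also higher in XY than XO oocytes (0.55 ± 0.23, adjusted p = 0.494). Itga6, an integrin chain that pairs with it, and the tetraspanin Tspan3 were lower in XX than XO oocytes, by -1.26 ± 0.38 and -1.68 ± 0.52, and in XY than XO oocytes, by -0.95 ± 0.37 and -1.80 ± 0.52. Igsf8, a membrane partner of CD9, was the 1 gene called between XX and XY oocytes, higher in XX by 0.77 ± 0.33 (adjusted p = 0.803), with 70.2, 52.5, and 42.0 normalized CPM in XX and 43.7, 28.0, and 25.1 in XY pools, which overlapped.

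Of 20 genes of cortical granules and their exocytosis, 15 were tested, and 4 were lower in XX than XO oocytes, beside 16.7% of all tested genes, 0 were called between XX and XY, beside 5.8%, and 4 were lower in XY than XO oocytes, beside 8.24%. The medians of the list were -0.785 for XX against XO and -0.855 for XY against XO oocytes, against -0.457 and -0.300 for all tested genes. Plat, the tissue plasminogen activator, had 207, 217, and 251 normalized CPM in XX, 312, 469, and 1107 in XO, and 214, 163, and 212 in XY pools. Every XO pool was above every XX and XY pool, XO1 included, and the log2 fold change was -1.48 ± 0.46 for XX against XO (edgeR adjusted p = 0.203) and -1.68 ± 0.46 for XY against XO (adjusted p = 0.485). Syt1, a calcium sensor of exocytosis, was likewise higher in all XO pools (73.5, 65.7, and 95.4) than in XX (37.4, 36.1, and 22.5) and XY pools (49.7, 41.7, and 38.3). By contrast, Padi6, of the oocyte cytoplasmic lattices, had 212 normalized CPM in XO1, 7273 in XO2, and 16520 in XO3, the pattern of Zp1. Fetub, whose product inhibits ASTL, had 0.4–24.8 normalized CPM over the 9 pools and was lower in XX than XO oocytes (-3.04 ± 1.15, adjusted p = 0.229). Its counts were low, with 1, 5, and 9 UMIs in XX1 to XX3 and 1, 32, and 44 in XO1 to XO3. XO1 thus lay among the XX pools.

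Of 21 genes for processing and secretion of zona proteins, 10 were tested. Against XO oocytes, 1 was higher and 3 were lower in XX, beside 1.4% and 16.7% of all tested genes, and 2 were lower in XY, beside 8.24%. Between XX and XY oocytes, 1 was higher in XX, beside 1.41%. The medians of the list were -0.630 for XX against XO, -0.0438 for XX against XY, and -0.415 for XY against XO oocytes. Piga, an X-linked gene for the synthesis of GPI anchors, which IZUMO1R carries, was higher in XX oocytes than in both others, with 42.4, 32.6, and 39.6 normalized CPM in XX, 21.7, 18.6, and 27.7 in XO, and 18.1, 21.2, and 22.6 in XY pools. Its XX pools did not overlap with the others, with log2 fold changes of 0.75 ± 0.27 against XO (edgeR adjusted p = 0.220) and 0.88 ± 0.27 against XY (adjusted p = 0.555). Pigk, of the enzyme that attaches the anchor, was lower in XX than XO oocytes by -1.60 ± 0.49.

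Among 11 genes for transcription of zona genes, 9 were tested and 1, Nobox, was called, lower in XX and in XY than XO oocytes, beside 16.7% and 8.24% of all tested genes. Nobox, a homeobox factor of the oocyte, had 61.98, 67.2, and 109 normalized CPM in XX, 56.4, 522, and 1138 in XO, and 51.6, 91.8, and 185 in XY pools, and was lower by -2.85 ± 0.90 in XX (edgeR adjusted p = 0.203) and by -2.38 ± 0.88 in XY than XO oocytes (adjusted p = 0.485). XO1 lay among the XX and XY pools, and XO2 and XO3 above them. Figla had 9.3, 9.1, and 15.8 normalized CPM in XX, 0.5, 12.9, and 17.5 in XO, and 7.0, 7.8, and 8.8 in XY pools and was not called (log2 fold change 0.15 ± 0.74 for XX against XO). Of 18 genes of egg activation and zinc release, 14 were tested, and 4 were lower in XX than in XO, 1 lower in XX than in XY, and 1 lower in XY than XO oocytes, beside 16.7%, 4.39%, and 8.24% of all tested genes. Ppp3ca, the catalytic subunit of calcineurin, was lower in XX than in XO (-1.79 ± 0.63, adjusted p = 0.218) and XY oocytes (-1.46 ± 0.63, adjusted p = 0.809). Its pools overlapped in both comparisons, at 6.3 to 12.8 normalized CPM in XX, 12.4 to 50.2 in XO, and 10.2 to 45.3 in XY.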

How the data were processed

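The authors mapped the stranded reads to GRCm38 and Gencode by Hisat2, kept 5′ exons, and deposited UMI counts per gene, a signal matrix called normalized CPM, and log2 values with batch effects regressed out by sva and cleaningY. Normalized CPM was rebuilt from counts and TMM factors of the 79 ERCC spike-ins with a largest relative deviation of 5e-15. The XO column without a number was taken as XO1, from the description of that sample. The labels name no batch. Counts were tested in edgeR 4.0.16 by its quasi-likelihood F test, after filterByExpr, with spike-in factors and 1 mean per genotype over all 9 pools, two-sided, for 10993 genes at an unadjusted p of 0.05, with Benjamini-Hochberg values beside it, and the script was tested on simulated data. limma 3.58.1 and DESeq2 1.42.0 served as alternatives, and ratios were compared by exact permutation (scipy 1.17.1). The 8 genes and the lists were chosen with earlier results of these data known. Named are the 8 genes, up to 3 called genes per list and comparison, defining markers, and the 2 genes nearest to each member. XO and XY pools of the same number deviated with correlations of 0.83, 0.278, and 0.773, whereas XY3 and XO2, of unlike number, had 0.721. A replicate block was fitted as an alternative from these values alone, and the main fit had no block. The floor was 3 UMIs per genotype.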

Additional observations from a re-analysis of the deposited data

How the results depend on the processing

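Of 7 tested members, 2 were called for XX against XO, 0 for XX against XY, and 2 for XY against XO. For XX against XO the count was 1 with TMM factors on genes and 1 with library size alone. It was 1 with 2 recovered components as covariates, which was Cd9 at -1.39 while Zp1 fell short at -0.17. The count was 3 with the spike-in ratio as covariate and 0 with limma at a pseudocount of 1 or 0.5. DESeq2, which tested 8 members, gave 4 and called Zp2 higher in XX. Without a filter on low counts the count was 6, all lower in XX. It was 4 in the batch-regressed values, all higher in XX, and 0 when scaled to spike-in totals. Of all 10993 tested genes, library size alone called 986 higher and 421 lower in XX, and the components 764 and 329. The spike-in ratio called 724 and 3132, and limma 175 and 1142 at a pseudocount of 1. Batch-regressed values gave 3972 and 814, and spike-in totals 290 and 53. DESeq2 called 515 and 1308 of 28046, and the fit without a filter 179 and 3774 of 28051. For XY against XO the count was 1 with TMM factors, 1 with library size alone, 1 from these 2 genotypes only, and 1 when scaled to spike-in totals. It was 0 with the components, where Zp1 was at -0.23, and 0 with limma at either pseudocount. The count was 6 without the filter and 3 with the spike-in ratio as covariate. It was 4 in the batch-regressed values, where Zp2, Zp3, and Cd9 were higher and Oosp1 lower in XY. Of all tested genes, the spike-in ratio called 7.88% higher and 18.7% lower in XY, and the batch-regressed values 37.5% higher. Shares of all genes are not given here for library size alone, the 2 genotypes only, spike-in totals, the components, limma at either pseudocount, or no filter. The counts of members in those fits for XY against XO are therefore not read as a result. For XX against XY the count was 1 with the components, Cd9, lower in XX, and 0 otherwise. With the components, 899 of all 10993 tested genes were called higher and 1497 lower in XX than XY oocytes. Leaving out 1 pool at a time gave 0 to 5 called members against XO in both comparisons, 5 without XO1 and 0 without XO3, and 0 for XX against XY. With a replicate block the count stayed at 2 for XX against XO and at 2 for XY against XO, and Zp1 and Astl remained called in both. XX pools did not pair by number throughout, with correlations of 0.468, -0.447, and 0.679 with XO and 0.435, -0.0595, and 0.726 with XY. The block moved the genes lower in XY than XO from 906 to 1553.

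Directions turned as follows, and the cause was not tested. Against XO, the components gave 0.56 for Astl, 1.83 for Izumo1r, and 0.24 for Oosp1 in XX and 0.0039 for Zp3, 0.35 for Astl, 1.37 for Izumo1r, and 0.046 for Oosp1 in XY. The batch-regressed values gave 0.30 for Zp1, 1.38 for Zp3, 0.30 for Astl, 0.59 for Izumo1r, and 1.10 for Cd9 in XX and 0.16, 1.00, 0.17, 0.51, and 1.04 in XY. The spike-in ratio as covariate gave 0.42 for Zp3 and 0.16 for Cd9 in XX and 0.0649 and 0.16 in XY. Oosp1 turned to 0.0779 in XX and 0.056 in XY with library size alone and to 0.47 in XX with spike-in totals. Without 1 pool, Oosp1 ranged from -0.75 to 0.48 in XX and from -0.72 to 0.59 in XY, and Zp2 from -0.17 to 0.48 in XY, each turning without XO1.

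For XX against XY, where no member was called, signs turned often. TMM factors gave 0.0669 for Zp1, 0.0934 for Astl, 0.0979 for Izumo1r, and 0.0376 for Oosp1, library size alone 0.0478, 0.0662, 0.0877, and 0.0219, and DESeq2 0.113, 0.133, 0.131, and 0.0457. The components gave 0.0594 for Zp1, -0.0434 for Zp3, 0.21 for Astl, 0.46 for Izumo1r, and 0.20 for Oosp1, and the spike-in ratio 0.19 for Zp1, 0.0808 for Astl, 0.0313 for Izumo1r, and 0.0046 for Cd9. The batch-regressed values gave 0.15 for Zp1, 0.13 for Astl, 0.0787 for Izumo1r, 0.061 for Cd9, and 0.0631 for Oosp1, and spike-in totals 0.61, 0.52, 0.62, 0.32, and 0.60. Limma gave 0.0502 for Zp1 and 0.0154 for Astl at a pseudocount of 1 and 0.0526 and 0.0157 at 0.5, and the replicate block 0.24 for Zp1, 0.10 for Astl, and 0.32 for Cd9. Without 1 pool, Zp1 ranged from -0.63 to 0.53, Zp3 from -0.64 to 0.90, Astl from -0.34 to 0.39, Izumo1r from -0.28 to 0.21, Cd9 from -1.42 to 0.63, and Oosp1 from -0.34 to 0.28. The log2 difference of the Zp2 to Zp3 ratio ranged from -0.61 to 0.58 and that of Zp1 to Zp2 from -0.65 to 0.22, whereas all other ratio differences kept their direction without any 1 pool and in the batch-regressed values.

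There were 3 pools per genotype, with XO1 apart from XO2 and XO3 for most members. The study, in its heatmap of highly expressed and variable genes, instead named XX1, XO2, and XY1 as less similar to their other replicates. No member passed an adjusted p of 0.05 in the main fit, with the spike-in factors, the filter, all pools, and no covariate. Ratio tests could not give a p below 0.1. Izumo1r and Cd81 are limited by counts, with at most 44 and 4 UMIs in a pool. For XX against XO and XY against XO, 5 and 4 members passed it without XO1 and 5 and 4 without the filter. In the batch-regressed values 2 and 2 did, and 2 and 2 with the spike-in ratio as covariate. For XX against XY 1, Cd9, did with the components. The share of all genes past it in these fits is not given here. At an unadjusted p below 0.05, 34.2% of all genes tested were lower in XX and 27.6% lower in XY without XO1. In the batch-regressed values, 36.1% were higher in XX and 37.5% higher in XY than XO oocytes. These counts therefore show nothing particular to the members.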
